A study of Mus musculus with 14 samples.

Results

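Acod1 and 9 inflammatory genes that the transcription factor NF-kappaB is known to switch on were followed across a study of the Tsk2 allele of the type III collagen gene Col3a1. The other genes were Il6, Nos2, Ptgs2, Ptx3, Saa3, Lcn2, Tnfaip3, Nfkbia and Tnf. Members were taken by gene symbol, and all 10 had a value on every array, out of 19532 named genes. They rested on 13 of the 41174 probes, with 2 probes each for Acod1, Ptgs2 and Ptx3 and 1 for each of the others. Acod1 was singled out because earlier results on these arrays showed it low with the Tsk2 allele in fibroblasts, so the fibroblast values of the 10 genes are given as a description without a test.

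The study hybridised 14 two-colour Agilent arrays, each setting the RNA of 1 sample (Cy5) against a universal mouse reference RNA (Cy3). The fibroblast arrays came from Col3a1 knockout mouse fibroblasts that received either Tsk2 Col3a1 or WT Col3a1 by transfection, so both groups lacked the endogenous gene, with 3 arrays each. The skin arrays came from 4-week-old female Tsk2 mice and from WT mice of the same age and sex, with 4 arrays each. The series title names the mutant mice Tsk2/+ and their phenotype fibrotic. The sources used here do not say whether the fibroblasts were 1 line or clone, from which body site the skin came, or whether fibroblast samples of a group were separate cultures, so spreads between fibroblast arrays may be technical. Each value sets the sample over the reference on a log2 scale and is called a level below, so that 0 is the level in the reference pool. They compare samples for 1 gene and do not rank genes against each other.

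NF-kappaB is held in the cytoplasm by inhibitor proteins until a receptor for a cytokine or a microbial product activates the kinases that destroy them. In the nucleus it switches on cytokines such as Tnf and Il6, enzymes such as Ptgs2 (cyclooxygenase-2, for prostaglandins) and Nos2 (inducible nitric oxide synthase), and secreted defence proteins such as Ptx3, Saa3 and Lcn2. It also switches on its own brakes, Nfkbia (the inhibitor IkappaB-alpha) and Tnfaip3 (the ubiquitin-editing enzyme A20). Acod1, formerly Irg1, encodes the enzyme that makes itaconate from an intermediate of the citric acid cycle and is known chiefly from activated macrophages. Fibroblasts make several of these products themselves when cytokines reach them.

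The promoter letters of 5 of these genes are shown because they carry, or lack, the site that NF-kappaB is known to bind, and because their levels differed in unlike ways between the groups. Each line gives the 250 bases before the annotated start, 5′ to 3′ on the strand of the gene, from RefSeq on build GRCm38.p6, with matches to the kappaB consensus in capitals.
Acod1, chr14:103046762-103047011, plus strand: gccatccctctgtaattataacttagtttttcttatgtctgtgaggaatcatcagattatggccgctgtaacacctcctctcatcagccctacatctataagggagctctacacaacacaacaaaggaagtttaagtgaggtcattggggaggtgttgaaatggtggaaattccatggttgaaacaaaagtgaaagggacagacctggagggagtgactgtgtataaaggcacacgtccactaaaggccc
Ptx3, chr3:66219637-66219886, plus strand: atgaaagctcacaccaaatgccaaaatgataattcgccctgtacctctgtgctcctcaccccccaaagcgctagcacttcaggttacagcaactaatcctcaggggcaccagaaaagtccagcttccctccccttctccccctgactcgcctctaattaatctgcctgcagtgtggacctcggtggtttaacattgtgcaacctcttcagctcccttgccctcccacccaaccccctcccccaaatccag
Il6, chr5:30012864-30013113, plus strand: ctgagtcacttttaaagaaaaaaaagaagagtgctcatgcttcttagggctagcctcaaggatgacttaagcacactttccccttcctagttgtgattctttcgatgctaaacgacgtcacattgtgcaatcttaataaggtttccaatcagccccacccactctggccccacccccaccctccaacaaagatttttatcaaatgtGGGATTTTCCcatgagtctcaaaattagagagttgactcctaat
Nfkbia, chr12:55492648-55492897, minus strand: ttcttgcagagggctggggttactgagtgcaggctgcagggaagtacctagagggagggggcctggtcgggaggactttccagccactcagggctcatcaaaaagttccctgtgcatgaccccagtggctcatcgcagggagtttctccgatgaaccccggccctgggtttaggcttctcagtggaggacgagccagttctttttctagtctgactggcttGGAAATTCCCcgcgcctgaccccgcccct
Tnfaip3, chr10:19015411-19015660, minus strand: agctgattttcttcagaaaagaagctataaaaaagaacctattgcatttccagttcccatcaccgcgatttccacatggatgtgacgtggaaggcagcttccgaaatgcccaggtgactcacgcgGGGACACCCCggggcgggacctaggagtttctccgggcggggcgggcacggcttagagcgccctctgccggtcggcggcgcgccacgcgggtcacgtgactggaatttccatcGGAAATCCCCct
Of the 10 genes, 9 matched a promoter window in the RefSeq table, and Nos2 did not. Each window holds 300 bases, from 250 before the start to 50 after it, and both strands were searched. The kappaB consensus was found in windows of Il6, Nfkbia, Ptx3 and Tnfaip3, so in 4 of 9 genes, against 5.14% of all genes in the table. The genes were chosen as ones that NF-kappaB is known to switch on, so kappaB matches above the share of all genes are no separate result. In Il6 the match starts 44 bases before the start of the gene and in Nfkbia 29 bases before it. In the Tnfaip3 window shown, matches start 125 and 12 bases before the start. Tnfaip3 has another annotated start, preceded by chr10:19011964-19012213 and not shown, and its window held no match to the consensus. The first match of Ptx3 starts on the last base before the start and runs past the stretch shown. A second match overlaps it, begins on the next base and lies wholly past that stretch. A stricter form, GGGA followed by any base and TTTCC, every match of which is also a match of the consensus, was found in Il6 and Nfkbia, against 0.466% of all genes. The AP-1 motif TGANTCA lay in windows of Il6 and Tnfaip3 (8.97% of all genes), and the C/EBP motif TTGCNNAA in Il6, Lcn2, Ptgs2, Ptx3 and Saa3 (12.2%). The interferon-type motif, a pair of GAAA with 2 free bases between them, lay in Saa3 (3.99%). None of these letters was found in the windows of Acod1 or Tnf. A match is a description of sequence and not of binding.

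The arrays differed in quality, and few of the marks fell on these genes. Exact zeros made up 0.8% to 30.1% of the probes of an array, the highest share in WT skin replicate 2, and none of the 13 probes held one. That array still held the lowest WT skin value of Acod1, Il6, Ptgs2, Ptx3, Lcn2, Nfkbia and Tnf, though not of Nos2, Saa3 or Tnfaip3. Over all probes its root mean square difference from the other WT skin arrays was 0.902 to 0.972. Values shared by 50 or more probes of 1 array, called repeated values below, made up 33.8% to 46.7% of probes, and 1 value of Nfkbia was of this kind. The deposited ratios do not carry spot brightness, so whether a level far below the reference lay near the floor of the scanner cannot be told. In the cultures the mean level of 9 fibroblast markers was 0.96 to 1.18 with the Tsk2 allele and 0.72 to 0.79 with the WT allele. Single fibroblast markers differed widely. The highest was Thy1, at 2.78 with Tsk2 and 2.61 with WT. The lowest were Pdgfra with Tsk2 (0.04, against -0.01 with WT) and the collagen gene Col1a2 with WT (-0.50, against 0.27 with Tsk2). Col1a1, Fap and Vim also lay below the reference with WT, at -0.04, -0.20 and -0.32. Keratinocyte markers averaged 0.24 to 0.51 on the fibroblast arrays and 3.90 to 5.01 in skin over 10 genes. In the cultures single keratinocyte markers ran from Krt14, a basal keratin, at -1.49 with Tsk2 and -1.02 with WT, to Ivl, a cornified envelope protein, at 3.36 and 3.40. Of 12 macrophage genes in the cultures the lowest was the myeloid adaptor Tyrobp, at -4.02 with Tsk2 and -4.01 with WT. The highest with Tsk2 was the complement gene C1qb (0.26, against 0.05 with WT), and the highest with WT was C1qa (-0.01 with Tsk2, against 0.38).

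Ptgs2, Il6 and Saa3 stood far higher in the cultured fibroblasts than in skin. For 7 of the 10 genes every fibroblast array lay above every skin array, which was so for 14.9% of all genes. Ptgs2 ran from 4.25 to 4.73 on the 6 fibroblast arrays and from -5.51 to -3.91 on the 8 skin arrays, and its group means differed 440-fold between Tsk2 fibroblasts and Tsk2 skin and 519-fold between WT fibroblasts and WT skin. Il6 ran from 3.39 to 3.75 in fibroblasts and from -4.62 to -2.49 in skin, a 94.5-fold difference with Tsk2 and 141-fold with WT. These cultures therefore held both transcripts above the reference pool, while skin held both far below it.

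Saa3, an acute-phase serum amyloid A made outside the liver, lay between 0.68 and 2.03 in fibroblasts and between -4.75 and -3.36 in skin. Its means differed 64.8-fold with Tsk2 and 23.8-fold with WT. Acod1, Ptx3, Lcn2 and Tnfaip3 were also without overlap, and their fibroblast means were 2.22 to 4.79 times the skin means with Tsk2 and 2.36 to 19.4 times with WT. For Acod1 the gap was 2.22-fold with Tsk2, the smallest of these 4, and 19.4-fold with WT, the largest of them. Nos2, Nfkbia and Tnf overlapped between the systems. The labels' protocols name a different RNA kit for cultures than for skin, and culture, kit and tissue cannot be told apart. In skin, fewer cells of a type and less RNA per cell cannot be told apart either, here or in the results that follow.

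**Figure D1:**
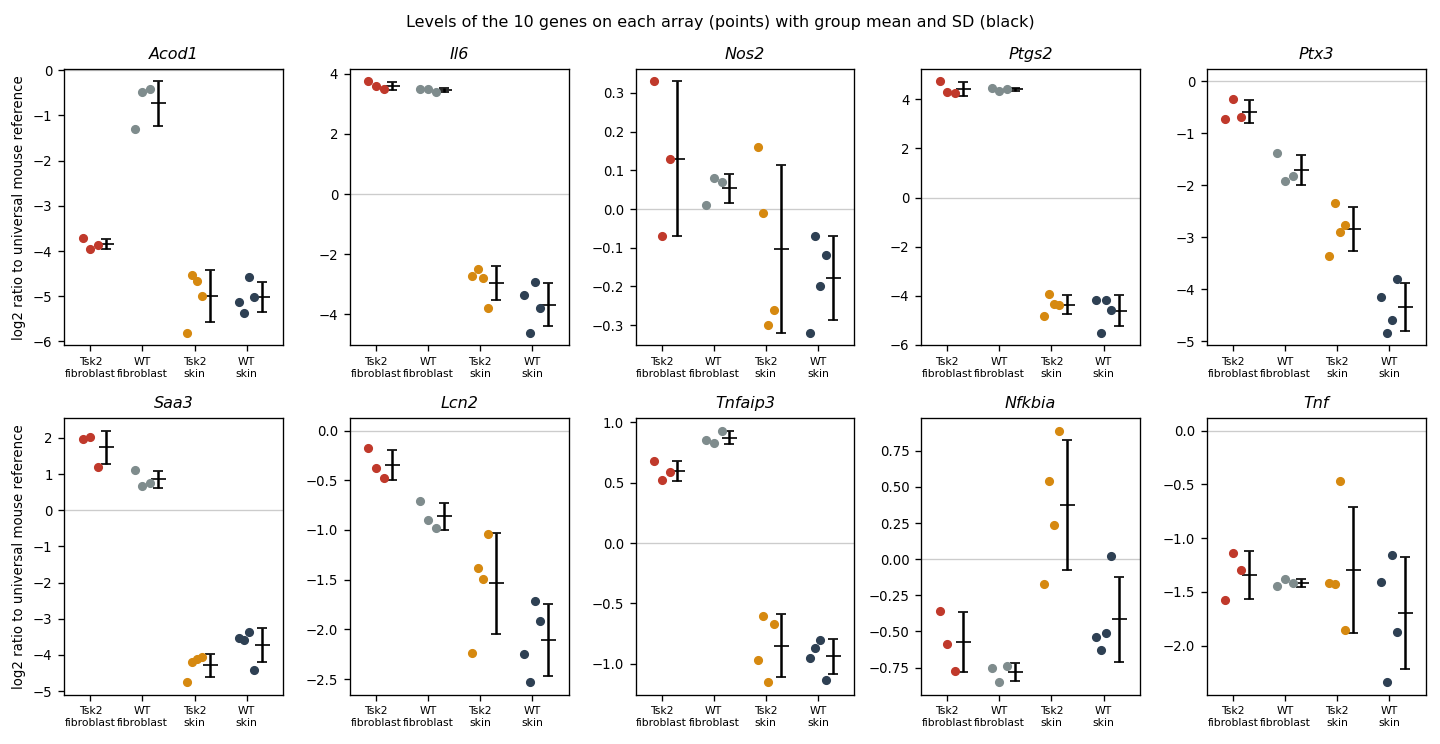
Levels of the 10 genes as log2 ratios to the universal mouse reference (vertical axis, its range set for each gene) in Tsk2 fibroblasts, WT fibroblasts, Tsk2 skin and WT skin. Points are arrays, and the black bars are the group mean with its SD. Acod1 in WT fibroblasts (-1.30 to -0.42) stands above the other 3 groups, Ptx3 is higher with Tsk2 in both systems, and Il6 and Ptgs2 separate by system and overlap between alleles.

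Acod1 had the largest difference of the 10 genes between the alleles in fibroblasts, and it was lower with Tsk2. Its level was -3.72, -3.95 and -3.87 in Tsk2 replicates 1 to 3, against -1.30, -0.49 and -0.42 in WT replicates 1, 3A and 3B. No array of one transfection reached the other, and the Tsk2 arrays lay closer together than the WT arrays, of which replicate 1 was the lowest. The means were -3.85 ± 0.116 in Tsk2 fibroblasts, against -0.74 ± 0.491 in WT fibroblasts (SD, n = 3 each), an 8.63-fold lower level with Tsk2. Both Acod1 probes had a negative difference, at -3.14 and -3.08, and lay at most 0.21 apart on a fibroblast array. By size this was the difference ranked 2 among all genes, and it ranged from -3.39 to -2.95 over all alternatives tried. Acod1 was singled out for this difference on these same arrays, so its size, rank and range are a description and not independent support.

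In skin Acod1 was low in both genotypes. It read -5.81, -4.52, -4.66 and -4.99 in Tsk2 mice, against -5.12, -5.37, -4.57 and -5.01 in WT mice, and the genotypes overlapped throughout. The limma difference over these 4 and 4 arrays was 0.02 (95% interval -0.66 to 0.71, adjusted p = 0.973), and -0.46 with quantile normalization (adjusted p = 0.18). Skin carried more macrophage transcript than the cultures, with the mean of 12 macrophage markers at 1.97 to 2.30 in Tsk2 skin and 1.33 to 2.30 in WT skin, against -1.81 to -1.54 in Tsk2 fibroblasts and -1.50 to -1.44 in WT fibroblasts. Acod1 ran the other way between the systems. Of those 12 markers, Cd163, Mrc1 and C1qa held exact zeros on at least 1 array, and 0 passed the threshold in either comparison. Their part in the level of Acod1 was not tested.

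The order of the 4 group means of Acod1 was WT fibroblasts, Tsk2 fibroblasts, Tsk2 skin and WT skin. The first 3 did not overlap with their neighbours, and the skin groups did. The genes nearest to Acod1 were sought by the root mean square difference over the 14 arrays after each gene was centred on its own mean. Among 19523 genes with a value on every array, the nearest were Rsad2, the antiviral protein viperin, at 0.70, the matrix protease stromelysin-1, Mmp3, at 0.76, and Cstdc4 at 0.77. The interferon-induced Ifit2 at 0.82 and Ifnb1, interferon beta itself, at 0.83 followed. The median gene stood at 1.78. Because Acod1 differs so much between the alleles and the systems, the measure favours genes with both differences.

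The neighbours differed in the same direction as Acod1 in fibroblasts and by less. They were picked for likeness to Acod1 on these same arrays, so the shared direction follows from the choice and is no separate result. Rsad2 averaged 0.50 ± 0.299 with Tsk2 and 2.60 ± 0.0642 with WT, and Mmp3 averaged 1.97 ± 0.132 in Tsk2 fibroblasts, against 3.27 ± 0.463 in WT fibroblasts (SD over 3 arrays). Ifnb1 averaged 2.09 ± 0.0537 with Tsk2 and 3.47 ± 0.318 with WT, but 57.1% of its values and of those of Cstdc4 were repeated values. Of the other inflammatory genes Tnfaip3 was the nearest to Acod1, at 1.13 and rank 236, and Ptgs2 the farthest, at 3.24 and rank 18855. Il6, at 2.37, and Ptgs2 also had the largest gaps between the systems among the 10 genes.

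**Figure D2:**
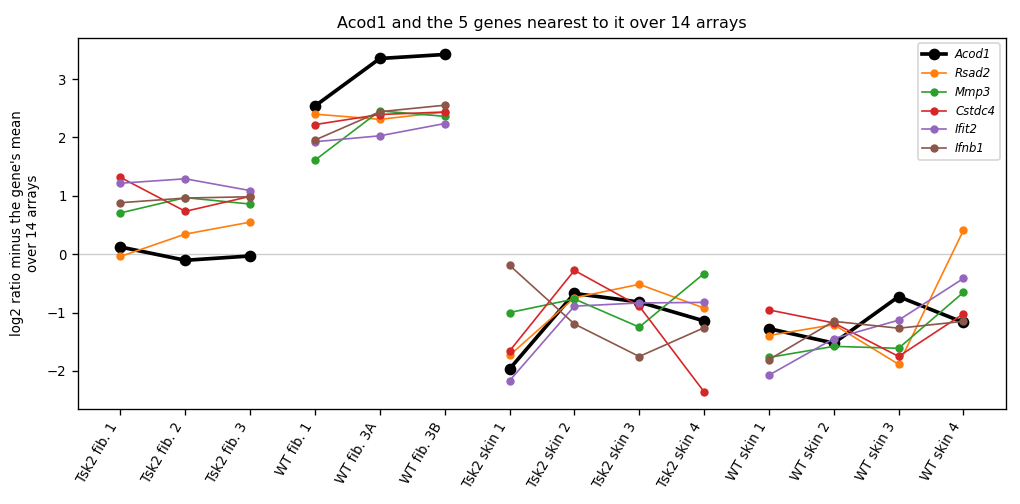
Centred levels (log2 ratio minus the mean of the gene over the 14 arrays, vertical axis) of Acod1 in black and of Rsad2, Mmp3, Cstdc4, Ifit2 and Ifnb1 on each array (horizontal axis), with lines joining arrays of 1 group only to guide the eye. By group mean all 6 are lower in Tsk2 fibroblasts than in WT fibroblasts and lowest in skin, and Acod1 spans the widest range. The neighbours were picked for likeness to Acod1 on these arrays, so the shared pattern follows from the choice.

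The 3 secreted defence proteins had higher means with Tsk2 in fibroblasts, opposite to Acod1. Ptx3, the long pentraxin that tags microbes and damaged cells and also sits in hyaluronan-rich matrix, read -0.73, -0.33 and -0.68 with Tsk2, against -1.37, -1.92 and -1.82 with WT, without overlap. That is a 2.18-fold higher mean with Tsk2. Saa3 read 1.98, 2.03 and 1.20 with Tsk2 and 1.12, 0.68 and 0.75 with WT, where the lowest Tsk2 array stood just above the highest WT array. Its mean was 1.85-fold higher with Tsk2. Lcn2, a carrier that keeps iron from bacteria, read -0.18, -0.38 and -0.48 with Tsk2 and -0.71, -0.90 and -0.98 with WT, again without overlap, and was 1.43-fold higher with Tsk2. Over the alternatives these differences ran from 0.95 to 1.29 for Ptx3, 0.65 to 1.15 for Saa3 and 0.43 to 0.59 for Lcn2.

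In skin only Ptx3 passed the test among the 10 genes. It read -3.37, -2.35, -2.89 and -2.77 in Tsk2 mice, against -4.14, -4.84, -4.60 and -3.81 in WT mice, so all Tsk2 mice lay above all WT mice, as they did for 9.33% of all genes. The means were -2.84 ± 0.419 in Tsk2 skin and -4.34 ± 0.460 in WT skin (SD, n = 4 each). Ptx3 was 2.83-fold higher, a rise of 1.50 ± 0.285 on the log2 scale (SE, 95% interval 0.85 to 2.15, adjusted p = 0.0367 by limma over all genes). One of 10 genes higher is to be read against the 1.91% of all genes called higher in Tsk2 skin. Its probes gave differences of 1.85 and 1.15 and lay up to 1.41 apart on 1 array.

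The Ptx3 call did not hold in most fits that left out a mouse. Leaving out Tsk2 replicate 2, 3 or 4 or WT replicate 1, 2 or 3 put the adjusted p between 0.0755 and 0.117 at differences of 1.34 to 1.57, and each of these fits called 0 of all genes (3474 to 4145 at an unadjusted p under 0.05). It held without Tsk2 replicate 1 (0.036) and without WT replicate 4 (0.0121). With quantile normalization the difference was 1.21 at an adjusted p of 0.0504.

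The mean level of fibroblast markers was also higher in Tsk2 skin. The mean of 9 fibroblast markers was 2.05, 2.01, 2.14 and 2.28 in Tsk2 replicates 1 to 4, against 0.99, 1.19, 0.97 and 1.86 in WT replicates 1 to 4. Of these markers the collagen-binding proteoglycan Lum rose by 1.35 (adjusted p = 0.0356) and the PDGF receptor Pdgfrb by 1.24 (adjusted p = 0.033), against 1.91% of all genes called higher. The other 7 did not pass, and Fap stood at -0.53. Hair follicle markers ran against them, at a mean of 3.60, 0.52, 2.40 and 0.36 in Tsk2 replicates 1 to 4 and 5.79, 5.82, 5.69 and 4.28 in WT replicates 1 to 4, with 7 of 14 lower by the test, against 0.998% of all genes. Over all 14 arrays, fibroblasts included, repeated values made up 21.4% (Krt86 and Padi3) to 64.3% (Krt31 and Krt34) of the values of those 7. Krt33a, Krt86, Padi3, Foxn1 and Dlx3 of the list held an exact zero on at least 1 array. WT replicate 4 stood nearest to the Tsk2 mice in Ptx3 and in both lists. Over all probes WT replicate 4 also lay nearer to Tsk2 replicates 1, 3 and 4 than to any other WT mouse. The root mean square differences were 0.584, 0.67 and 0.701, against 0.73 to 0.951 for the WT mice, and 0.793 for Tsk2 replicate 2. The nearness of WT replicate 4 is therefore a trait of the whole array and not particular to these genes. The part of these cell types in the level of Ptx3 was not tested.

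**Figure D3:**
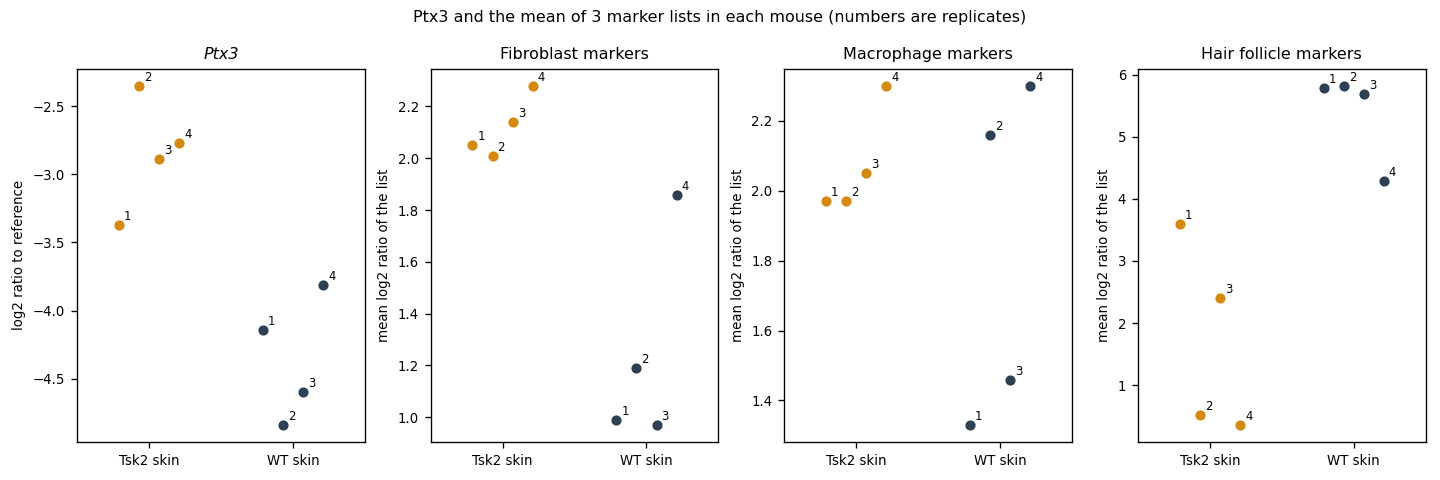
Level of Ptx3 (left) and mean level of 9 fibroblast, 12 macrophage and 14 hair follicle markers in each mouse, as log2 ratios to the reference, with Tsk2 skin left of WT skin and replicate numbers beside the points. Ptx3 and the fibroblast markers are higher, and the hair follicle markers lower, in every Tsk2 mouse than in any WT mouse, and WT replicate 4 is the WT mouse nearest to the Tsk2 mice in these 3 panels.

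Saa3 and Lcn2 did not pass the test in skin. Saa3 read -4.75, -4.20, -4.10 and -4.07 in Tsk2 skin, against -3.53, -3.59, -3.36 and -4.41 in WT skin, where WT replicate 4 was the one WT mouse among the Tsk2 values. Its difference was -0.56 (95% interval -1.16 to 0.04, adjusted p = 0.247 by limma), opposite in sign to the 0.89 in fibroblasts, and the difference between the systems was not tested. Lcn2 read -2.24, -1.38, -1.49 and -1.04 in Tsk2 skin and -2.25, -2.53, -1.71 and -1.92 in WT skin, with a difference of 0.57 (95% interval -0.08 to 1.21, adjusted p = 0.276 by limma).

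**Figure D4:**
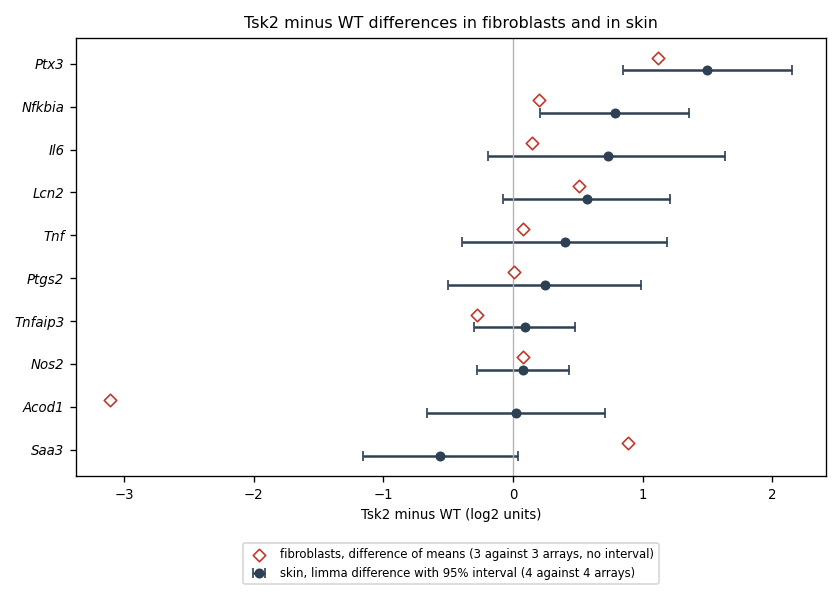
Differences Tsk2 minus WT in log2 units (horizontal axis) for the 10 genes, as open diamonds for fibroblasts (3 against 3 arrays, without an interval) and filled circles with 95% limma intervals for skin (4 against 4 arrays). Acod1 stands at -3.11 in fibroblasts and 0.02 in skin, and Ptx3 at 1.12 and 1.50.

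Both brakes among the 10 genes had small differences in fibroblasts. Tnfaip3 read 0.68, 0.52 and 0.59 with Tsk2 and 0.85, 0.83 and 0.93 with WT, without overlap, and was 1.21-fold lower with Tsk2. Nfkbia read -0.36, -0.59 and -0.77 with Tsk2 and -0.75, -0.85 and -0.74 with WT, where Tsk2 replicate 3 lay within the WT range. In skin Nfkbia read -0.17, 0.54, 0.24 and 0.89 in Tsk2 mice, against -0.54, -0.63, -0.51 and 0.02 in WT mice. Tsk2 replicate 1 and WT replicate 4 were the arrays that crossed. The difference of 0.79 ± 0.253 (SE, 95% interval 0.21 to 1.36) had an adjusted p of 0.115 by limma, and 0.0288 with 1 fit over all 14 arrays. Tnfaip3 in skin ran from -1.15 to -0.60 in Tsk2 and from -1.13 to -0.80 in WT, a difference of 0.09 (95% interval -0.30 to 0.48, adjusted p = 0.783).

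The cytokines and enzymes overlapped between the alleles in both systems. In fibroblasts Il6 read 3.75, 3.59 and 3.49 with Tsk2 and 3.49, 3.50 and 3.39 with WT, and Ptgs2 read 4.73, 4.28 and 4.25 with Tsk2 and 4.45, 4.35 and 4.43 with WT. Tnf averaged -1.34 ± 0.223 with Tsk2 and -1.42 ± 0.0351 with WT, and Nos2 averaged 0.13 ± 0.20 in Tsk2 fibroblasts, against 0.05 ± 0.0379 in WT fibroblasts (SD over 3 arrays). All 4 overlapped, with differences of 0.15, 0.01, 0.08 and 0.08. Groups were without overlap for 5 of the 10 genes in this contrast and for 20% of all genes. Of the 5, 3 were higher (9.81% of all genes) and 2 lower (10.2%), and nothing is read from that, since the contrast had a part in the choice.

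In skin Il6 read -2.73, -2.49, -2.80 and -3.79 in Tsk2 mice and -3.36, -4.62, -2.94 and -3.79 in WT mice. Its difference of 0.73 had a 95% interval from -0.19 to 1.64 (adjusted p = 0.318 by limma). For Tnf the interval ran from -0.39 to 1.19 (adjusted p = 0.528), for Ptgs2 from -0.50 to 0.99 (0.688) and for Nos2 from -0.28 to 0.43 (0.805). Nos2 stayed between -0.32 and 0.33 on all 14 arrays, the narrowest range of the 10 genes. Of the 10 skin differences 9 were above 0, with a median of 0.324, where the median of all genes was 0.0299 and 52.7% of all genes were above 0. Those of Acod1, Nos2 and Tnfaip3 were small, at 0.02, 0.08 and 0.09. With quantile normalization Acod1 and Ptgs2 stood below 0, at -0.46 and -0.19. Without WT skin replicate 2, the array with the most exact zeros, they also stood below 0, at -0.09 and -0.05. In that fit Il6 stood at 0.41, Lcn2 at 0.42 and Tnf at 0.19, and Nos2 and Tnfaip3 each at 0.11. Ptx3 stood at 1.34, Nfkbia at 0.72 and Saa3 at -0.51. In fibroblasts 8 of the 10 differences were above 0 with a median of 0.113, against a median of -0.0003 and 49.8% of all genes. Nothing is read from the fibroblast count, since that contrast had a part in the choice.

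Other genes of the pathway were listed by role, and 76 of 84 listed genes had a value; the other 8 are not analysed here. In fibroblasts limma called 0 of the 76 (19 at an unadjusted p under 0.05, of which 9 higher and 10 lower), against 0.0512% of all genes called and 11.2% at an unadjusted p under 0.05. Their median difference was 0.0281. The receptors held the lowest p-values, with Nod1, a sensor of bacterial cell wall, at 0.65 ± 0.0869 in Tsk2 fibroblasts, against 0.08 ± 0.0688 in WT fibroblasts (SD, n = 3 each, adjusted p = 0.206 by limma). The lipopolysaccharide co-receptor Cd14 had a difference of -0.56 (0.220). Among effector targets Csf2, the cytokine GM-CSF, read 4.16, 3.91 and 3.86 with Tsk2, against 4.46, 4.60 and 4.52 with WT, at an adjusted p of 0.254, and Gch1, which supplies the cofactor of nitric oxide synthase, had a difference of -0.48 (0.267).

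Among the signalling genes of fibroblasts, Map3k14, the kinase NIK of the non-canonical branch, had a difference of 0.52 and Traf1, an adaptor of TNF receptors, of 0.32 (adjusted p = 0.305 and 0.411). Among the brakes Irak3, which dampens Toll-like receptor signalling, stood at 0.48 and the RNase Zc3h12a at 0.31 (0.407 and 0.514). The NF-kappaB subunits Nfkb2 and Rela stood at -0.16 and -0.36 (0.50 and 0.539). None of these passed the test.

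In Tsk2 skin 2 of the 76 genes rose and 1 fell, against 1.91% of all genes called higher and 0.998% called lower. All 3 were among the 26 measured effector targets. Ccrl2, an atypical receptor that binds chemerin, read -0.92, 0.02, -0.72 and 0.06 in Tsk2 mice, against -1.56, -1.97, -1.70 and -1.49 in WT mice, and rose 2.45-fold (adjusted p = 0.0414 by limma). Birc3, the inhibitor of apoptosis cIAP2, averaged 0.22 ± 0.150 in Tsk2 and -0.59 ± 0.268 in WT (SD, n = 4 each) and rose 1.76-fold (0.0486), with 25% of its skin values repeated values. Junb, an AP-1 subunit, averaged -0.30 ± 0.146 in Tsk2 and 0.56 ± 0.287 in WT and fell by 0.85 on the log2 scale (0.0476). The genotypes did not overlap in any of the 3, but these were picked by the test, so this is no separate result. Of the 76 genes, 14 were higher and 5 lower in Tsk2 skin without overlap. Of all genes, 9.33% were higher without overlap, and the share lower is not given here. The 3 calls became 0 when any 1 of the 6 mice that the Ptx3 call needed was dropped. Dropping Tsk2 replicate 1 left 1 call, and dropping WT replicate 4 gave 11 calls.

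Most of the receptors lay higher in Tsk2 skin without passing the test. Of 16 receptors, 15 had a difference above 0, with a median of 0.36, and 0 passed by limma (6 at an unadjusted p under 0.05). Of all genes, 52.7% were above 0 and 23.1% were at an unadjusted p under 0.05. Nod2, a sensor of bacterial cell wall like Nod1, read 0.38, 0.89, -0.03 and 0.58 in Tsk2 mice, against -1.12, -0.98, -1.12 and 0.04 in WT mice (difference 1.25, adjusted p = 0.0643). Il6st, the signalling receptor of Il6 and its relatives, had a difference of 0.66 (0.104). As with Nfkbia, WT replicate 4 was the highest WT mouse in both, at 0.04 for Nod2 and 0.74 for Il6st.

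Of the other roles in skin, 0 genes passed by limma, with 2 of 4 subunits, 2 of 15 brakes and 3 of 15 kinases and adaptors at an unadjusted p under 0.05, a share of 23.1% over all genes. Of the non-canonical branch, Map3k14 stood at 0.60, Nfkb2 at 0.51 and its partner Relb at 0.70 (adjusted p = 0.0868, 0.0972 and 0.116). Tnip2 and Cyld, both brakes on the pathway, stood at 0.62 and 0.45 (0.0934 and 0.108), the second with 37.5% of its skin values repeated values. Traf1 stood at -0.58 (0.101). Over the 76 genes the median difference in skin was 0.18, with 49 above 0.

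**Figure D5:**
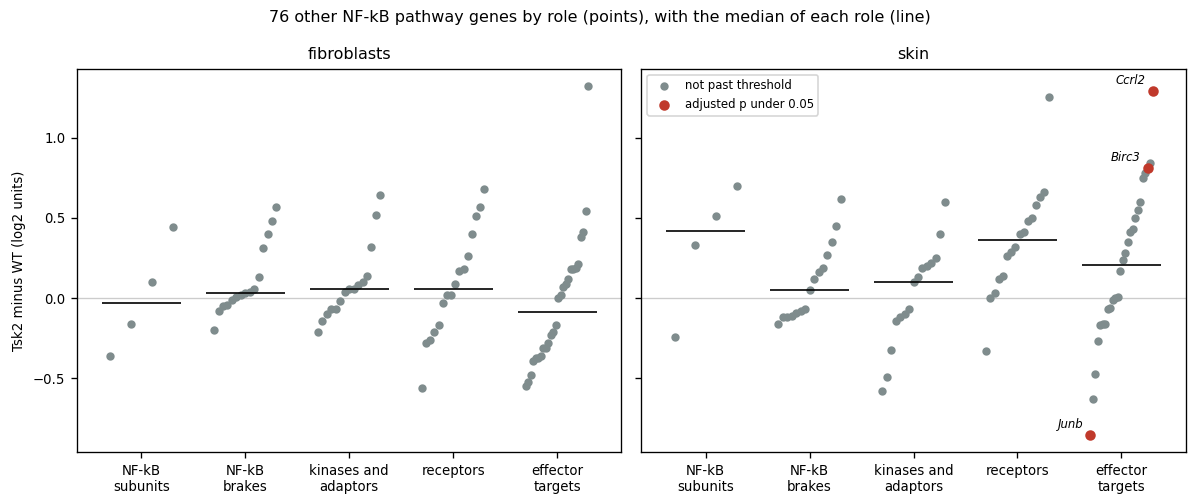
Differences Tsk2 minus WT in log2 units (vertical axis) of 76 other NF-kappaB pathway genes, grouped by role, in fibroblasts (left) and skin (right). Points are genes, lines are medians and red points are past the limma threshold. In skin Ccrl2 (1.29), Birc3 (0.81) and Junb (-0.85) passed, and in fibroblasts 0 did.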

How the data were processed

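The authors deposited 1 table of log2 ratios of sample (Cy5) to universal mouse reference (Cy3), with the dyes and the direction per the labels; log2 is inferred from the range of the values. The sources used here give no feature extraction, background correction, normalization or genome build. Array medians lay between 0 and 0.043. Of 41174 probes, 32664 had 1 gene symbol, 45 several and 8465 none in the platform annotation, and 19411 of 19532 genes matched RefSeq. A gene is the mean of its probes. No scanner file, slide or scan date was used, so batches could not be tested. WT fibroblast arrays 3A and 3B share a number and were the closest pair of fibroblast arrays (root mean square difference 0.507 over probes). WT fibroblast replicate 1 was almost as close to them, at 0.512 from 3A and 0.519 from 3B. Whether 3A and 3B are separate samples cannot be told from this, so n = 3 may overstate that group. Averaging 3A and 3B gave an Acod1 difference of -2.97 and a Ptx3 difference of 1.04. The number of arrays limits the precision.

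Each comparison was fitted on its own arrays by lmFit and eBayes of limma 3.58.1 under R 4.3.3 (two-sided, Benjamini-Hochberg threshold 0.05 over all genes), for genes on at least 2 arrays of each fibroblast group or 3 of each skin group. The fit was tested on simulated data. Members and lists were chosen with earlier results of these data known. Named pathway genes are those past the threshold and, where fewer than 2 of a role passed, the 2 of lowest p, and the 5 genes nearest to Acod1. Alternatives covered scaling, probe choice, exact zeros, repeated values, the gene filter, array weights, a shared fit of all 14 arrays, the replicate number as block, averaging WT 3A and 3B, and leaving out each array. The neutrophil list had 9 measured genes, with a mean level of 0.09 to 0.31 in Tsk2 fibroblasts, -0.10 to 0.53 in WT fibroblasts, 0.28 to 0.43 in Tsk2 skin and 0.17 to 1.10 in WT skin, and limma called 0 of them in either comparison. Repeated values made up 100% of the values of Elane and Cxcr2 and 71.4% to 92.9% of those of Csf3r, Retnlg and Ngp. The share was 0% to 50% in S100a8, Mpo, Camp and S100a9. The mean of this list therefore says little about neutrophils.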

Additional observations from a re-analysis of the deposited data

How the results depend on the processing

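Signs turned only in differences that passed no test or were not tested. In skin the Acod1 difference was -0.46 with quantile normalization, -0.05 with array weights and -0.14 to 0.30 with 1 mouse left out, the Ptgs2 difference was -0.19, -0.02 and -0.05 to 0.41 under the same settings, and the Nos2 difference -0.01 to 0.14 with 1 mouse left out. In fibroblasts the Ptgs2 difference was -0.16 with quantile normalization, -0.06 with array weights and as low as -0.14 without 1 replicate, and those of Nos2 and Tnf -0.02 without Tsk2 replicate 1 and Tsk2 replicate 2. In skin the count of inflammatory members past the threshold, 1, was 0 with quantile normalization (4 at an unadjusted p under 0.05) and 2 with 1 fit over all arrays, Ptx3 and Nfkbia, and leaving out 1 replicate gave 0 to 1. The count of pathway genes, 3, was 0 where each gene took its most variable probe (20 at an unadjusted p under 0.05), 11 without probes mostly at repeated values, 9 with array weights and 16 with 1 fit over all arrays, and leaving out 1 replicate gave 0 to 11. Over all genes the skin count was 568, against 1885, 1726 and 2814 under the last 3 of these settings, 1827 without WT replicate 4 and 0 without Tsk2 replicate 2, 3 or 4 or WT replicate 1, 2 or 3. The causes were not tested. In fibroblasts 0 pathway genes passed under any alternative. The fibroblast count over all genes was 10, with 3 higher and 7 lower, against 2 higher and 1 lower with quantile normalization, 5 with the most variable probe, 57 without probes mostly at repeated values, 16 with array weights, 1 with exact zeros as missing, 0 with WT 3A and 3B averaged and 0 to 3 with 1 replicate left out. Deviations of like-numbered fibroblast samples correlated at 0.01 to 0.02 over genes, and those of the other pairs at -0.02 to 0.01. With 3 arrays in each group and no WT replicate 2, this cannot tell whether the numbers pair the samples. With the replicate block the pathway count was 0 (13 at an unadjusted p under 0.05), the count over all genes 0, and the Acod1 difference -2.99. The Il6 difference in fibroblasts was 0.02 with quantile normalization. Signal over background, which limits what low levels can show, was not among the values.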
